A study of Mus musculus with 10 samples.

Results

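Fatty acids are the main fuel of the adult heart, with ketone bodies and glucose as further fuels, and the enzymes that take up and burn fatty acids and ketones are encoded by a set of 38 genes that is described here. The members were chosen by symbol, as genes of these pathways, under a rule that uses no measured value, although the set was proposed with earlier results of these data known. All 38 were found among the 57185 genes with values in the count table, and all 38 passed the filter on low counts and were among the 13453 genes tested.

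RNA of the left ventricle (apical part) was sequenced after poly(A) selection, with 1 library per mouse, from 5 MLPKO and 5 cRADΔ/Δ-MLPKO male mice labelled as 16 weeks of age, although the study's text gives a slightly younger age. MLPKO stands for the knockout of muscle LIM protein (gene Csrp3), a sarcomere protein without which mice get dilated cardiomyopathy, a weakening and widening of the ventricle. Mice of both genotypes carried floxed alleles of RAD (gene Rrad), a small GTPase that restrains the L-type calcium channel. Both were given 1 intraperitoneal dose of tamoxifen (100 mg/kg) at 10 weeks of age. The study's text places the hearts 1 month after tamoxifen, less than the time from 10 weeks to the labelled 16 weeks of age. The cRADΔ/Δ-MLPKO mice also carried MYH6-MerCreMer, a tamoxifen-activated recombinase driven by a cardiomyocyte promoter, so that the deletion was restricted to cardiomyocytes. The control mice had no recombinase, so an effect of the recombinase itself and of RAD deletion cannot be told apart in this design, and no mouse with intact muscle LIM protein was part of it.

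A fatty acid enters the cardiomyocyte from albumin or from triglycerides split by lipoprotein lipase, helped by the membrane protein CD36, and is carried in the cytosol by the heart fatty acid-binding protein. It is joined to coenzyme A, moved into the mitochondrion as a carnitine ester by the carnitine palmitoyltransferases, and shortened by repeated rounds of dehydrogenation, hydration, dehydrogenation and thiolysis. Electrons of the first dehydrogenation pass through the electron transfer flavoprotein to ubiquinone. Ketone bodies made by the liver are oxidised in the same mitochondria. Many of these genes are targets of the nuclear receptor PPARα with its partner RXR, of the estrogen-related receptors, and of their coactivator PGC-1α, and the failing heart is known for lower use of fatty acids and greater use of ketones.

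Because PPARα and RXR bind a direct repeat of AGGTCA with 1 base between the copies, the promoters of the members were searched for that motif on both strands, from 250 bases before to 50 bases after the start of the Ensembl canonical transcript on GRCm39, allowing 2 mismatches outside the spacer. The motif was found in 3 of 38 member promoters (Echs1, Cpt1b and Ucp3) and in 753 of 21757 promoters of all genes (3.46%). The 2 matches that lie upstream of the start are shown 5′ to 3′ on the strand of the gene, with the motif in capitals (the match of Cpt1b is on the opposite strand), and the match of Ucp3 lies just past its start:
Echs1 at chr7:139696397-139696425, minus strand: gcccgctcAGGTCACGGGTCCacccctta
Cpt1b at chr15:89310292-89310320, minus strand: actcctggTGACCTTTTCCCTacattcag
The motif of the estrogen-related receptors, AGGTCA preceded directly by TCA, was found exactly in 0 of 38 member promoters and in 103 of 21757 (0.473%). A match describes these letters only, and its absence says nothing of binding outside this window.

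The total count per mouse was 33457406 to 49965101. Reads of Rrad, counted over the whole gene, lay between 139.7 and 281.7 CPM (counts scaled to a common library total, with TMM factors) in MLPKO and between 134.5 and 202.3 CPM in cRADΔ/Δ-MLPKO, so the groups overlapped (log2 fold change -0.38, SE 0.20, edgeR adjusted p = 0.29). Csrp3 was read in all 10 mice, at 690.7 to 3261 CPM, and the counts by exon that would check either deletion were not analysed here, so the genotypes rest on the labels alone. Markers of cardiomyocytes, none of them at 0, summed to 62420 to 74330 CPM in MLPKO and to 47690 to 61780 CPM in cRADΔ/Δ-MLPKO (9 of 10 genes below 0 in log2 fold change, median -0.20, Tnnt2 called), and those of endothelial cells to 1058 to 1298 and to 1246 to 1400 CPM (10 of 10 above 0, median 0.22, Tek called). In bulk tissue, fewer cells of a type and less RNA of the marker genes per cell cannot be told apart. The study names Tnnt2 among the transcripts lowered by RAD knockout.

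Several of the 10 libraries stood apart. MLPKO mouse 2 had the lowest level of all 10 mice in 30 of the 38 genes, with a mean log2 deviation of -0.40 from the mean of all mice, against -0.094 to 0.11 in the other MLPKO mice. The same mouse had the fewest counts (33457406) and the highest sums of the atrial (2544 CPM) and skeletal muscle (19110 CPM) marker lists, where the other 9 mice ranged from 226.6 to 1907 and from 2811 to 12710 CPM. These 2 sums were almost wholly Nppa (2435 CPM in that mouse) and Acta1 (19103 CPM), which failing ventricular cardiomyocytes are also known to make. Of the other markers in these lists, Dkk3 (15.3 CPM) and Tnnt3 (1.43 CPM) were highest in that mouse. Stard10 (12.4 CPM), Myh7b (48.3 CPM) and Mylpf (0.44 CPM) were lowest in it. The atrial light chains Myl7 and Myl4 stood at 1.87 and 3.33 CPM there. Sln, Bmp10, Myh1, Myh2, Myh4 and Tnnc2, at 0 there, were no higher than 0.36 CPM in any mouse. The mouse at the other end was cRADΔ/Δ-MLPKO mouse 4, the highest in 23 of 38 genes, at a mean deviation of 0.24. How often MLPKO mouse 2 was lowest and cRADΔ/Δ-MLPKO mouse 4 highest over all genes tested is not given here. These counts are therefore not shown to be particular to the members. In cRADΔ/Δ-MLPKO mouse 3, the 10 adipocyte markers summed to 138.4 CPM, against at most 1.72 CPM in the other 9 mice, and 5 of the 10 markers were at 0 in 6 or more of the 10 mice. It also had the highest sum of macrophage markers, 522.9 CPM, against 210.6 to 297.1 CPM in MLPKO and 248.4 to 377.2 CPM in the other cRADΔ/Δ-MLPKO mice. In cRADΔ/Δ-MLPKO mouse 1, Myl7 and Myl4 stood at 4.55 and 19.6 CPM, against at most 1.87 and 5.29 CPM in the other mice. The sum of its atrial markers, 559.8 CPM, lay within the range of the other mice. The part of these features in the results was not tested, and values without MLPKO mouse 2 and without cRADΔ/Δ-MLPKO mouse 3 are given beside the results that they move.

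**Figure D1:**
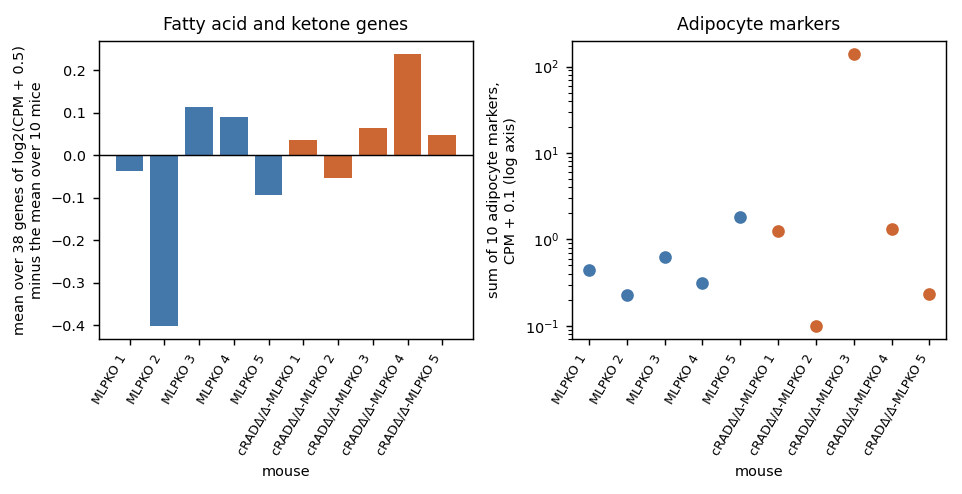
Left, the mean over the 38 genes of log2(CPM + 0.5) minus the mean of the 10 mice, 1 bar per mouse (blue, MLPKO; orange, cRADΔ/Δ-MLPKO), with MLPKO mouse 2 at -0.40 and cRADΔ/Δ-MLPKO mouse 4 at 0.24. Right, the sum of 10 adipocyte markers in CPM + 0.1 on a log axis, 1 point per mouse, with cRADΔ/Δ-MLPKO mouse 3 at 138.4 CPM and the other mice at 1.72 CPM or less.

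No gene of fatty acid oxidation or ketone use was called between the genotypes at an edgeR adjusted p under 0.05 (0 of 38), where 2.74% of all genes tested were called (369 of 13453), 0.944% higher and 1.8% lower. At an unadjusted p under 0.05 there were 6 of 38, against 21.6% of all genes tested, of which 5 were higher in cRADΔ/Δ-MLPKO (Hadh, Echs1, Etfa, Etfb and Bdh1, where 10.1% of all genes were) and 1 was lower (Slc27a6, where 11.5% of all genes were). The lowest adjusted p among the members was 0.0661. limma-voom called 0 members (2.53% of all genes) and DESeq2 called 2, Bdh1 and Etfb, both higher, where it called 9.65% of all genes. The groups did not overlap in 2 of 38 members, Etfb (higher) and Slc27a6 (lower), against 6.62% of all genes tested, 2.64% higher and 3.98% lower.

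The log2 fold changes of the members, cRADΔ/Δ-MLPKO against MLPKO, were small and mostly positive. They were above 0 in 32 of 38 (84.2%), with a median of 0.10, where 52.1% of all genes tested were above 0 with a median of 0.011. The set of 24 genes of the tricarboxylic acid cycle and pyruvate dehydrogenase gave 22 of 24 above 0, a median of 0.078 and 0 genes called. Without MLPKO mouse 2, which was lowest in most members, 23 of 38 members (60.5%) stayed above 0 and the median was 0.023 (all genes 52.2% and 0.011), and the tricarboxylic acid cycle set gave 20 of 24 and 0.061. Leaving out cRADΔ/Δ-MLPKO mouse 3 in its place gave 35 of 38 and a median of 0.11, and leaving out both mice gave 25 of 38 and a median of 0.043. The median was 0.053 without cRADΔ/Δ-MLPKO mouse 4, the highest mouse, 0.16 without MLPKO mouse 3 and 0.15 without MLPKO mouse 4, and 0.098 to 0.12 without any other single mouse. The log2 fold change was lower without MLPKO mouse 2 in 36 of 38 members and changed sign in 9.

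The spread between mice set how much could be seen. The SE of the log2 fold change lay between 0.048 (Acot13) and 0.55 (Ucp3), with a median of 0.10, and the 95% interval stayed within 1.5-fold in either direction for 30 of 38 members. The other 8 were Slc27a6, Cpt1b, Ech1, Acot1, Acot2, Ucp2, Ucp3 and Bdh1, whose intervals reached past 1.5-fold.

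**Figure D2:**
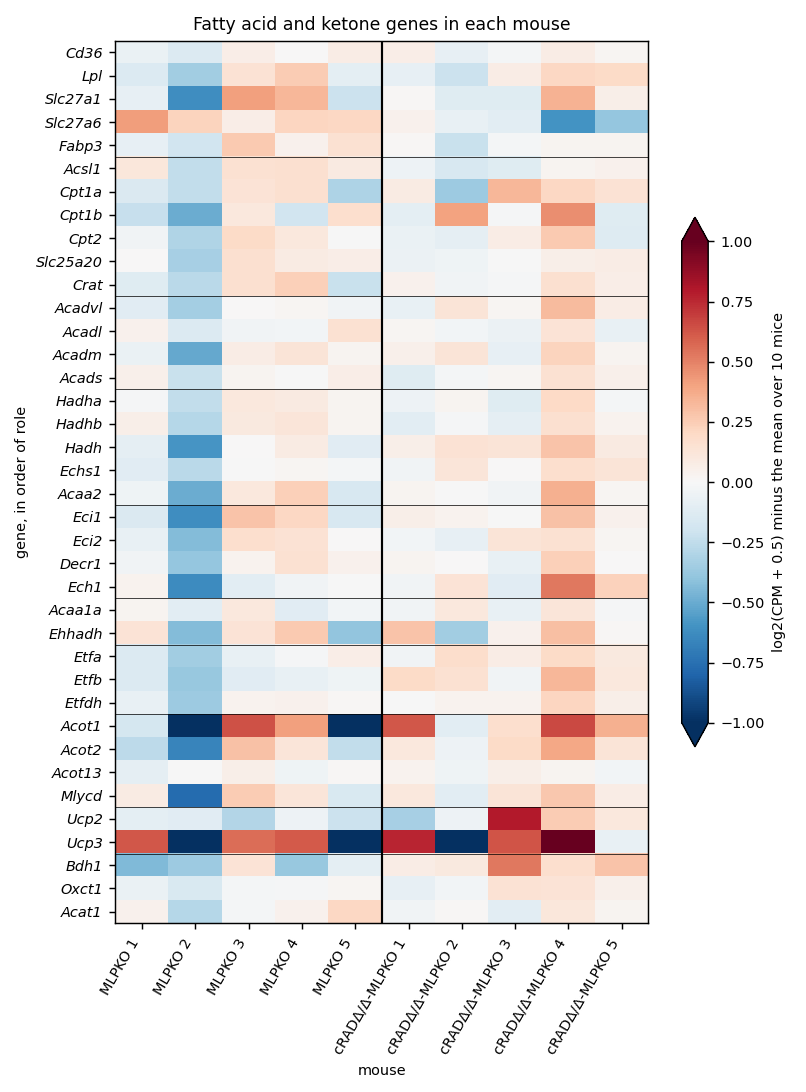
log2(CPM + 0.5) of each of the 38 genes (rows, in order of role, with lines between roles) in each of the 10 mice (columns, MLPKO left of the vertical line and cRADΔ/Δ-MLPKO right), minus the gene's mean over the mice, on a color scale from -1 to 1. The column of MLPKO mouse 2 is blue in most rows and that of cRADΔ/Δ-MLPKO mouse 4 red, and Ucp3 and Acot1 vary more between mice than the other rows.

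The abundance of the members per kilobase of transcript spanned a wide range. Fabp3, which carries fatty acids in the cytosol, was the highest in MLPKO at 3546 CPM per kilobase (RPKM), followed by Lpl at 1078, Hadhb at 676, Cd36 at 495, Ech1 at 488 and Acadm at 469.6 RPKM. At the other end stood Acot1 at 2.91, Ehhadh, a peroxisomal enzyme, at 2.67, Cpt1b at 0.591 and Slc27a6 at 0.156 RPKM. Several of the abundant members overlap a protein-coding gene on the opposite strand, which holds 37% of the exon bases of Fabp3 (Zcchc17), 38.2% of those of Acadvl (Dvl2), 54.4% of those of Acot13 (BC005537) and 21.3% of those of Hadha (Garem2), and whether the counting used strand is not given in the sources used here.

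None of the 5 uptake genes passed the test, and their differences were small apart from that of the least abundant. Cd36 (GRCm39 chr5:17986432-18094067, minus strand), the main membrane protein for uptake of long-chain fatty acids, was measured at 1667, 1588, 1830.2, 1753 and 1837 CPM in MLPKO mice 1 to 5 and at 1824, 1654, 1726, 1837 and 1769 CPM in cRADΔ/Δ-MLPKO mice 1 to 5. The groups overlapped over most of their range, with a log2 fold change of 0.022 (95% interval -0.11 to 0.16, edgeR adjusted p = 0.879). Fabp3 (chr4:130202388-130209259, plus strand) was measured at 2678, 2476, 3386, 2914 and 3137 CPM in MLPKO and at 2848, 2429, 2792, 2876 and 2880.5 CPM in cRADΔ/Δ-MLPKO, again with overlap and with cRADΔ/Δ-MLPKO mouse 2 the lowest of the 10 (log2 fold change -0.078, SE 0.091, edgeR adjusted p = 0.672). Lpl, lipoprotein lipase, averaged 4438 ± 736 CPM in MLPKO and 4639 ± 569.8 CPM in cRADΔ/Δ-MLPKO (SD, n = 5 each), and Slc27a1, a fatty acid transport protein, 135 ± 37.9 and 138 ± 19.2 CPM. Their log2 fold changes were 0.064 and 0.031, and both were below 0 without MLPKO mouse 2 (-0.0078 and -0.091). Cd36 RNA is also made by endothelial cells and macrophages, and Lpl RNA by macrophages. Markers of endothelial cells and of macrophages lay above 0 in log2 fold change in 10 of 10 and 9 of 10 genes (medians 0.22 and 0.46). The part of those cells was not tested.

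Slc27a6 (chr18:58689031-58746566, plus strand), another fatty acid transport protein, was scarce, with 30, 17, 22, 20 and 24 raw counts in MLPKO and 14, 16, 12, 4 and 8 in cRADΔ/Δ-MLPKO. On the CPM scale these were 0.693, 0.539, 0.434, 0.533 and 0.529 against 0.419, 0.348, 0.328, 0.0891 and 0.181, so that every cRADΔ/Δ-MLPKO mouse lay below every MLPKO mouse. The log2 fold change was -1.01 (SE 0.36, 95% interval -1.81 to -0.22) and the edgeR adjusted p = 0.132, and DESeq2 gave it no adjusted p. The log2 ratio of Slc27a1 to Slc27a6 was 7.92 ± 0.56 in MLPKO and 9.16 ± 1.09 in cRADΔ/Δ-MLPKO (SD, n = 5 each; two-sided exact permutation test, p = 0.0476, adjusted over 3 ratios 0.143). The smallest p that 5 against 5 mice allow in that test is 0.00794.

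In the activation and carnitine shuttle group, 0 of 6 genes passed the test and none reached an unadjusted p under 0.05. Acsl1, the main long-chain acyl-CoA synthetase of the heart, averaged 957 CPM in MLPKO and 885 CPM in cRADΔ/Δ-MLPKO (log2 fold change -0.11, and -0.18 without MLPKO mouse 2). Cpt1a (chr19:3371853-3437996, plus strand), the liver-type carnitine palmitoyltransferase of the outer membrane, was measured at 30.4, 28.2, 37.0, 37.6 and 27.1 CPM in MLPKO and at 35.5, 26.0, 42.4, 38.9 and 37.1 CPM in cRADΔ/Δ-MLPKO, with the lowest value of the 10 in cRADΔ/Δ-MLPKO mouse 2 and the highest in cRADΔ/Δ-MLPKO mouse 3 (log2 fold change 0.17, SE 0.13, edgeR adjusted p = 0.508). Cpt1b (chr15:89300606-89310239, minus strand), the muscle type of the same enzyme and known as the predominant one in the adult heart, had 1.62, 1.27, 2.17, 1.68 and 2.29 CPM in MLPKO and 1.83, 2.79, 1.97, 2.94 and 1.79 CPM in cRADΔ/Δ-MLPKO, and the groups overlapped (log2 fold change 0.32, SE 0.22, edgeR adjusted p = 0.423). These are 40 to 132 raw counts per mouse, and per kilobase Cpt1b stood at 0.591 RPKM against 4.86 RPKM for Cpt1a in MLPKO.

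Cpt1b shares most of its exons with another gene. In GENCODE M39, 68.5% of its exon bases are shared, on the same strand, with Gm44502, a protein-coding gene that had 0 counts in all 10 mice, and how reads that fall on both genes were counted is not given in the sources used here. The level of Cpt1b in these counts, and any comparison of it with Cpt1a, is therefore uncertain. The log2 ratio of Cpt1a to Cpt1b was 4.17 ± 0.38 in MLPKO and 4.01 ± 0.52 in cRADΔ/Δ-MLPKO (SD, n = 5 each; two-sided exact permutation test, p = 0.603, adjusted 0.817). Cpt2, the inner-membrane transferase, Slc25a20, the carnitine-acylcarnitine translocase, and Crat, carnitine acetyltransferase, had log2 fold changes of 0.018, 0.0023 and 0.074.

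The 4 acyl-CoA dehydrogenases, which take very long, long, medium and short chains, gave 0 genes that passed the test. Acadm (chr3:153627989-153650317, minus strand), for medium chains, was measured at 956, 702, 1057, 1096 and 1021 CPM in MLPKO and at 1038, 1092, 944, 1167 and 1018 CPM in cRADΔ/Δ-MLPKO. MLPKO mouse 2 was the lowest and cRADΔ/Δ-MLPKO mouse 4 the highest, the other 8 mice were intermixed, and the log2 fold change of 0.12 (SE 0.11, edgeR adjusted p = 0.568) became 0.027 without MLPKO mouse 2. Acadvl, Acadl and Acads had log2 fold changes of 0.19, -0.00091 and 0.032, with mean levels in MLPKO of 410.3, 944 and 188 CPM.

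None of the 5 genes of the later steps of the spiral passed the test, and the largest differences were those of Hadh and Echs1. Hadha (chr5:30323302-30360187, minus strand), the alpha subunit of the trifunctional protein, was measured at 1376, 1168, 1494, 1479.7 and 1412 CPM in MLPKO and at 1342, 1410.4, 1277, 1591 and 1368 CPM in cRADΔ/Δ-MLPKO, with overlap over nearly the whole range (log2 fold change 0.012, 95% interval -0.17 to 0.19, edgeR adjusted p = 0.952). Hadhb, its beta subunit, which lies head to head with Hadha, gave -0.012. Hadh, the dehydrogenase for shorter hydroxyacyl-CoA, averaged 401 ± 66.5 CPM in MLPKO and 484 ± 29.2 CPM in cRADΔ/Δ-MLPKO (SD, n = 5 each), a log2 fold change of 0.27 (SE 0.11, unadjusted p = 0.0286, edgeR adjusted p = 0.175) that was 0.17 without MLPKO mouse 2, which lay lowest at 290.1 CPM. Echs1, the short-chain enoyl-CoA hydratase whose promoter match is printed above, averaged 259.9 ± 20.7 and 289 ± 17.2 CPM (SD, n = 5 each; log2 fold change 0.16, unadjusted p = 0.0439, edgeR adjusted p = 0.219). Acaa2, the mitochondrial thiolase, had a log2 fold change of 0.13.

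The 4 auxiliary enzymes that handle double bonds, Eci1, Eci2, Decr1 and Ech1, had log2 fold changes of 0.14, 0.064, 0.071 and 0.30, and none passed the test. Of these Ech1 had the largest value, with 619.9 CPM in MLPKO and 762 CPM in cRADΔ/Δ-MLPKO (SE 0.14, edgeR adjusted p = 0.252), and 0.20 without MLPKO mouse 2. The peroxisomal members Acaa1a, a thiolase, and Ehhadh, the bifunctional enzyme, gave 0.043 and 0.11 at 39.7 and 7.96 CPM in MLPKO.

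All 3 genes of electron transfer to ubiquinone lay above 0 with and without MLPKO mouse 2, and none passed the edgeR test. Etfb (chr7:43093493-43107224, plus strand), the beta subunit of the electron transfer flavoprotein, was measured at 20.8, 17.5, 21.1, 21.8 and 22.3 CPM in MLPKO mice 1 to 5 and at 26.4, 25.6, 22.5, 29.0 and 24.7 CPM in cRADΔ/Δ-MLPKO mice 1 to 5. Every cRADΔ/Δ-MLPKO mouse lay above every MLPKO mouse, but only just, and with RLE size factors in place of TMM the groups overlapped. The log2 fold change was 0.31 (SE 0.083, 95% interval 0.13 to 0.49), with an edgeR adjusted p = 0.0661 and a DESeq2 adjusted p = 0.0216, and it was 0.25 without MLPKO mouse 2 (edgeR adjusted p = 0.0895). Etfb shares 39.6% of its exon bases on the same strand with Etfbl, which had 0 counts in all 10 mice, and its 23.2 RPKM stood far below the 288 RPKM of its partner subunit Etfa, so its level carries the same uncertainty as that of Cpt1b.

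Etfa, the alpha subunit, averaged 498 ± 52.7 CPM in MLPKO and 572 ± 34.9 CPM in cRADΔ/Δ-MLPKO (SD, n = 5 each; log2 fold change 0.20, unadjusted p = 0.0294, edgeR adjusted p = 0.177). Etfdh (chr3:79511086-79536807, minus strand), the ubiquinone oxidoreductase that receives these electrons, was measured at 506, 414, 546, 547 and 537 CPM in MLPKO and at 531, 546, 544, 616 and 554 CPM in cRADΔ/Δ-MLPKO. MLPKO mouse 2 was the lowest and cRADΔ/Δ-MLPKO mouse 4 the highest, with the others close together between 506 and 554 CPM, and the log2 fold change was 0.13 (SE 0.082, edgeR adjusted p = 0.389).

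**Figure D3:**
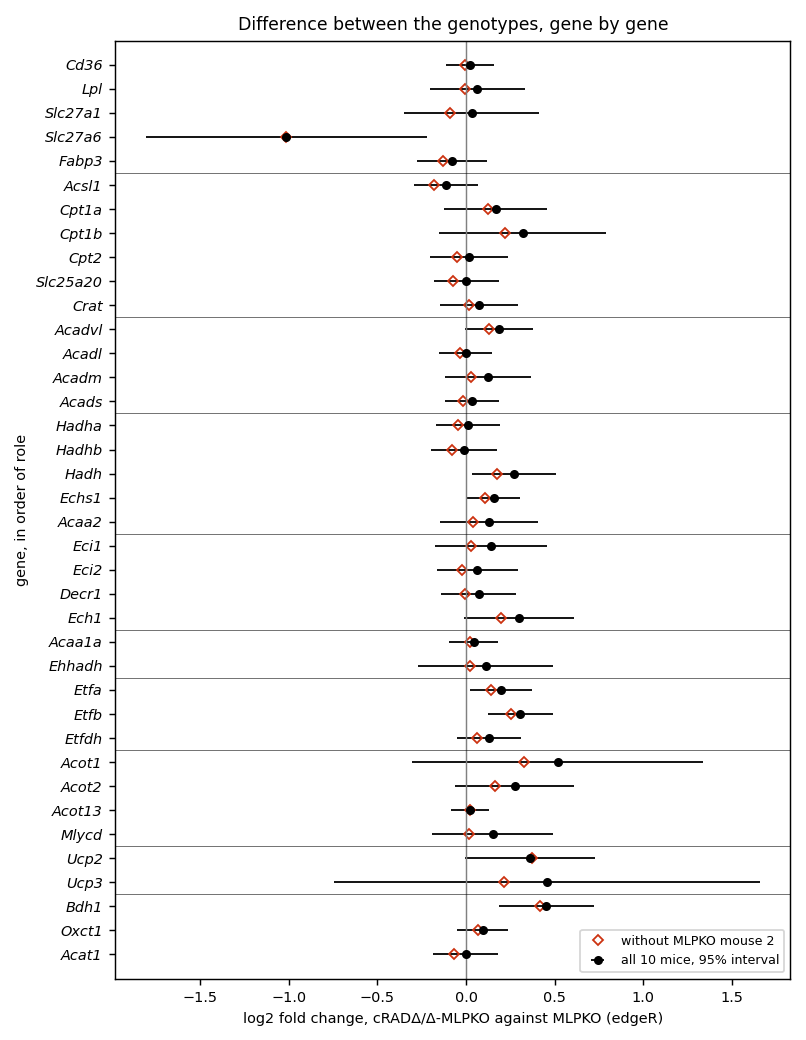
log2 fold change of each of the 38 genes, cRADΔ/Δ-MLPKO against MLPKO (horizontal axis, edgeR), as black points with 95% intervals over all 10 mice and as open red diamonds without MLPKO mouse 2. Of the black points 32 of 38 lie above 0, and of the diamonds 23 of 38.

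The thioesterases and the uncoupling proteins held the members with the widest spread between mice. Acot1, a cytosolic acyl-CoA thioesterase, averaged 6.63 ± 4.06 CPM in MLPKO and 9.55 ± 2.15 CPM in cRADΔ/Δ-MLPKO (SD, n = 5 each), with a within-genotype SD of 0.69 on the log2 scale and a log2 fold change of 0.52 (95% interval -0.30 to 1.34). Acot13, another thioesterase, had the narrowest spread of all members, an SD of 0.049 on the same scale, and a log2 fold change of 0.022. Acot2, the mitochondrial neighbour of Acot1, and Mlycd, which breaks down the Cpt1 inhibitor malonyl-CoA, gave 0.27 and 0.15, and 0.16 and 0.016 without MLPKO mouse 2. Acot1 and Acot2 are close in sequence, so reads may have been split between them.

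Ucp3 (chr7:100122136-100135976, plus strand), the muscle uncoupling protein and a known PPARα target, was measured at 31.9, 5.36, 30.6, 31.8 and 8.67 CPM in MLPKO and at 35.2, 7.19, 32.0, 55.1 and 19.6 CPM in cRADΔ/Δ-MLPKO. The 3 lowest mice, MLPKO 2 and 5 and cRADΔ/Δ-MLPKO 2, came from both genotypes, and the spread within a genotype (SD 1.14 on the log2 scale) was larger than the log2 fold change of 0.46 (SE 0.55, 95% interval -0.74 to 1.66, edgeR adjusted p = 0.684). Ucp2 (chr7:100142055-100151227, plus strand), its neighbour on the chromosome, which is also made by immune cells, was measured at 43.1, 42.7, 37.5, 44.5 and 39.6 CPM in MLPKO and at 36.5, 44.4, 80.3, 55.2 and 49.8 CPM in cRADΔ/Δ-MLPKO. The highest value belonged to cRADΔ/Δ-MLPKO mouse 3, the mouse with the highest adipocyte and macrophage markers, and the log2 fold change of 0.36 (SE 0.17, edgeR adjusted p = 0.24) was 0.17 without that mouse. The part of those cells in the value was not tested. The log2 ratio of Ucp2 to Ucp3 was 1.28 ± 1.23 in MLPKO and 1.07 ± 1.09 in cRADΔ/Δ-MLPKO (SD, n = 5 each; two-sided exact permutation test, p = 0.817, adjusted 0.817).

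**Figure D4:**
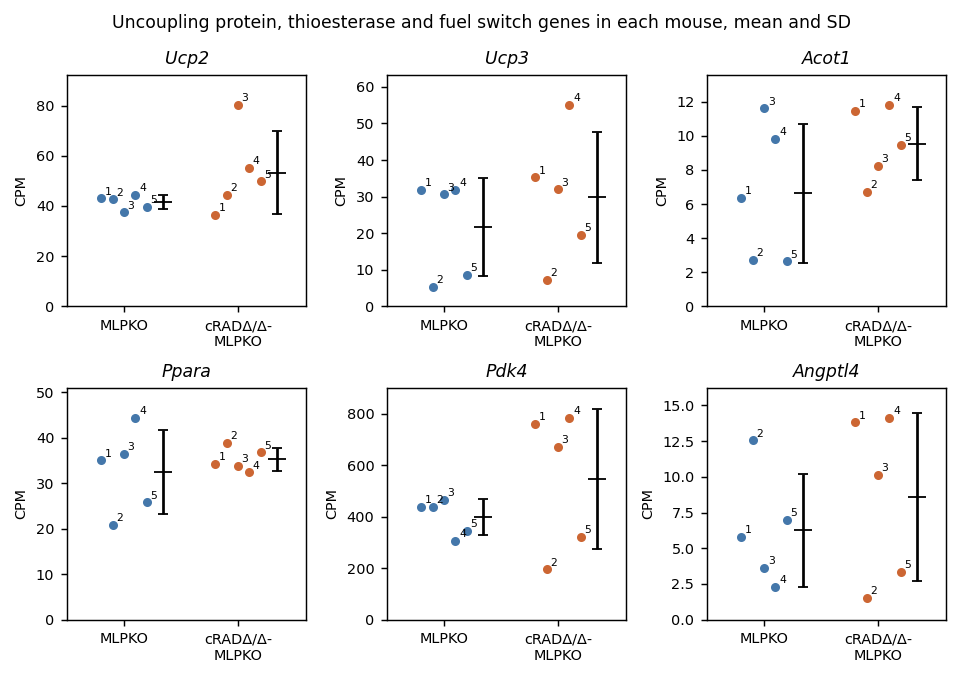
CPM of Ucp2, Ucp3, Acot1, Ppara, Pdk4 and Angptl4 in each mouse (points numbered by mouse; blue, MLPKO; orange, cRADΔ/Δ-MLPKO), with the mean and SD of 5 mice in black. The genotypes overlap in all 6 panels, Ucp3 ranges from 5.36 to 55.1 CPM, and Ucp2 is highest in cRADΔ/Δ-MLPKO mouse 3 at 80.3 CPM.

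Ketone use held Bdh1, which had the larger difference of the 2 members that DESeq2 called. Bdh1 (chr16:31241087-31277725, plus strand), which turns beta-hydroxybutyrate into acetoacetate, was measured at 181, 191, 271, 189 and 230.1 CPM in MLPKO mice 1 to 5 and at 259.8, 264, 355, 277 and 299.5 CPM in cRADΔ/Δ-MLPKO mice 1 to 5. MLPKO mouse 3 reached into the range of the cRADΔ/Δ-MLPKO mice, the other 4 MLPKO mice lay below all 5, and cRADΔ/Δ-MLPKO mouse 3 was the highest. The means were 212 ± 38.02 and 291 ± 38.97 CPM (SD, n = 5 each), a log2 fold change of 0.45 (SE 0.12, 95% interval 0.19 to 0.72) with an edgeR adjusted p = 0.0662 and a DESeq2 adjusted p = 0.0103. Leaving out MLPKO mouse 3 brought the edgeR adjusted p to 0.0302 and the log2 fold change to 0.56, and leaving out cRADΔ/Δ-MLPKO mouse 3 brought them to 0.13 and 0.38. Leaving out both MLPKO mouse 2 and cRADΔ/Δ-MLPKO mouse 3 gave 0.34 (edgeR adjusted p = 0.162).

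Oxct1 (chr15:4055638-4184828, plus strand), the transferase that commits acetoacetate to oxidation, was measured at 1358, 1278, 1404, 1407 and 1441 CPM in MLPKO and at 1344, 1396, 1569.8, 1565 and 1473 CPM in cRADΔ/Δ-MLPKO. The groups overlapped, with the 3 highest values in cRADΔ/Δ-MLPKO mice, and the log2 fold change was 0.093 (SE 0.065, 95% interval -0.049 to 0.23, edgeR adjusted p = 0.44). Acat1, the thiolase that closes ketone oxidation, averaged 570.0 ± 69.0 CPM in MLPKO and 569 ± 30.9 CPM in cRADΔ/Δ-MLPKO (SD, n = 5 each) and gave -0.0027.

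Beyond the members, 2 of the 5 tested genes in the list of ketone synthesis and transport passed the edgeR test, 1 lower and 1 higher, against 2.74% of all genes, and both carry monocarboxylates such as lactate and ketone bodies across the cell membrane. Slc16a1 (MCT1) was measured at 266, 261, 279.9, 281 and 330.4 CPM in MLPKO and at 196, 257, 197, 206 and 218 CPM in cRADΔ/Δ-MLPKO, and every cRADΔ/Δ-MLPKO mouse lay below every MLPKO mouse. Its log2 fold change was -0.40 (SE 0.089, edgeR adjusted p = 0.0395). Slc16a7 (MCT2), a low-abundance relative, was measured at 3.72, 1.93, 2.23, 4.51 and 1.94 CPM in MLPKO and at 5.06, 8.27, 5.57, 10.7 and 7.21 CPM in cRADΔ/Δ-MLPKO, and here every cRADΔ/Δ-MLPKO mouse lay above every MLPKO mouse. The log2 fold change was 1.36 (SE 0.28, edgeR adjusted p = 0.0308).

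Without cRADΔ/Δ-MLPKO mouse 3 the edgeR adjusted p of Slc16a1 and Slc16a7 was 0.0975 and 0.0549, and without both that mouse and MLPKO mouse 2 it was 0.0738 and 0.0537, with the direction kept. Leaving out single mice gave an edgeR adjusted p of 0.0352 to 0.0975 for Slc16a1, above the threshold without MLPKO mouse 1, 3 or 5 or cRADΔ/Δ-MLPKO mouse 1, 3, 4 or 5. For Slc16a7 the range was 0.0139 to 0.0786, above the threshold without MLPKO mouse 1, 3 or 5 or cRADΔ/Δ-MLPKO mouse 2, 3, 4 or 5. Over the 59 tested genes in lists of the wider pathway, 37 (62.7%) were above 0 with a median of 0.043, where 52.1% of all genes tested were above 0. Without MLPKO mouse 2 the count was 27 of 59 (45.8%) and the median -0.015, and without both mice it was 29 of 59 and -0.0026, so the direction of the median turned.

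**Figure D5:**
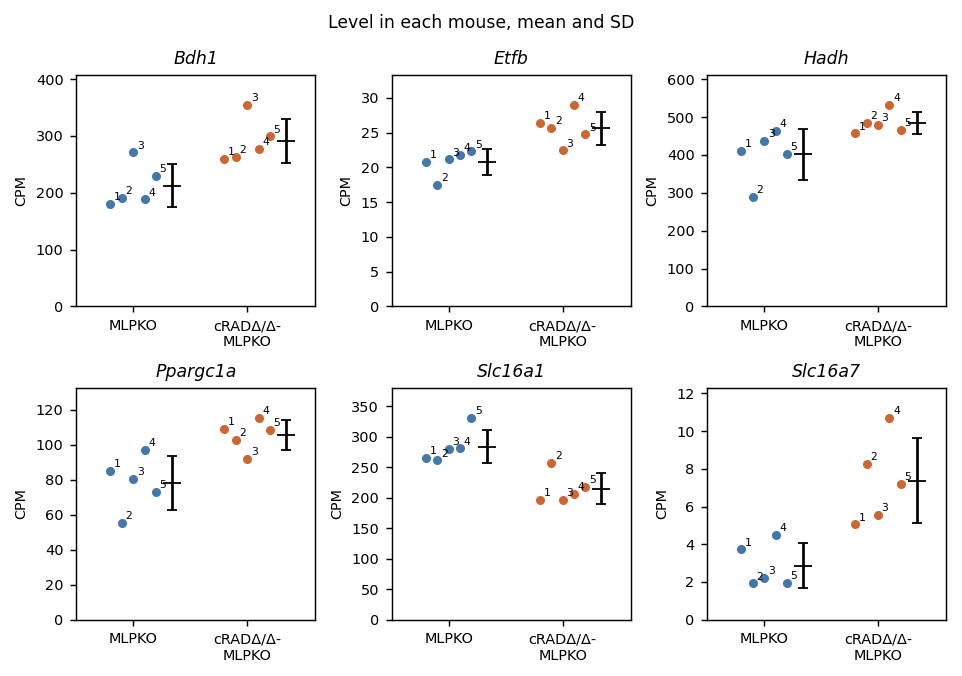
CPM of Bdh1, Etfb, Hadh, Ppargc1a, Slc16a1 and Slc16a7 in each mouse (points numbered by mouse; blue, MLPKO; orange, cRADΔ/Δ-MLPKO), with the mean and SD of 5 mice in black. The genotypes do not overlap for Etfb, Slc16a1 and Slc16a7, while MLPKO mouse 3 lies within the cRADΔ/Δ-MLPKO range for Bdh1 at 271 CPM.

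Of the 15 regulators, 0 were called and 12 lay above 0 (median 0.059), or 9 of 15 without MLPKO mouse 2. Ppargc1a, which encodes PGC-1α, was measured at 85.2, 55.3, 80.4, 97.2 and 72.9 CPM in MLPKO and at 109, 103, 92.1, 115 and 109 CPM in cRADΔ/Δ-MLPKO, with a log2 fold change of 0.43 (SE 0.12), an edgeR adjusted p = 0.0785 and a DESeq2 adjusted p = 0.0203. MLPKO mouse 4 lay above the lowest cRADΔ/Δ-MLPKO mouse, and the other 4 MLPKO mice lay below all 5. Ppara, which encodes PPARα, was measured at 35.0, 20.9, 36.5, 44.4 and 25.8 CPM and at 34.4, 38.8, 33.9, 32.4 and 36.9 CPM, with a far narrower spread in cRADΔ/Δ-MLPKO (log2 fold change 0.12, SE 0.17, edgeR adjusted p = 0.733).

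Genes that report on PPARα activity and fuel choice did not pass the test. Pdk4, the kinase that shuts down pyruvate dehydrogenase, was measured at 439.9, 439, 466, 306 and 346 CPM in MLPKO and at 762, 196, 673, 784 and 321 CPM in cRADΔ/Δ-MLPKO. Of the cRADΔ/Δ-MLPKO mice, 3 lay above all MLPKO mice, mouse 2 lay below all of them and mouse 5 below 4 of them (log2 fold change 0.45, SE 0.32, edgeR adjusted p = 0.45). Angptl4, an inhibitor of lipoprotein lipase, was measured at 5.80, 12.5, 3.63, 2.29 and 6.99 CPM and at 13.8, 1.52, 10.2, 14.1 and 3.37 CPM, and the same 3 cRADΔ/Δ-MLPKO mice (1, 3 and 4) were above the other 2 (log2 fold change 0.46, SE 0.57, edgeR adjusted p = 0.692). Fabp4, the fatty acid-binding protein of endothelial cells, adipocytes and macrophages, was measured at 272, 325, 309, 270.1 and 268 CPM and at 373, 316, 397, 361 and 319.7 CPM (log2 fold change 0.29, SE 0.083, edgeR adjusted p = 0.076, DESeq2 adjusted p = 0.0184), and was highest in cRADΔ/Δ-MLPKO mouse 3, the mouse with the highest adipocyte markers. Acacb, the carboxylase that makes the malonyl-CoA that holds back Cpt1, averaged 364 ± 65.2 CPM in MLPKO and 378 ± 43.7 CPM in cRADΔ/Δ-MLPKO (SD, n = 5 each; log2 fold change 0.053, edgeR adjusted p = 0.845).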

How the data were processed

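The deposited values are raw counts per gene, which the authors made by aligning the reads to GRCm39 with STAR and counting them with featureCounts, with FastQC also named in the submitters' processing notes, and without normalization. Settings for strand and for reads shared between genes, and tool versions, are not given in the sources used here. Of 60676 rows, 3491 without values were left out, and 56629 of the other 57185 were named by GENCODE M39. Counts from 1 to 20 were even in 73.7% to 80.3% of cases per library.

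A gene was tested where over 10 counts were found in 6 or more mice and its name was not of the Gm or Rik kind (13453 genes), a filter taken from the study's methods. Differences were tested by quasi-likelihood in edgeR 4.0.16 (R 4.3.3) on TMM-normalized counts, two-sided, with Benjamini-Hochberg adjustment over all genes tested and a threshold of 0.05. The study used DESeq2, which was run here as an alternative (1.42.0), as was limma-voom (limma 3.58.1). CPM were divided by the length of the Ensembl canonical transcript for levels between genes. Ratios were compared with two-sided exact permutation tests. Other alternatives were RLE size factors, no low count filter, filterByExpr, Gm and Rik genes kept, the mouse number as a block, and each mouse left out. The fit without both MLPKO mouse 2 and cRADΔ/Δ-MLPKO mouse 3 was chosen once the data were known.

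Members and lists were chosen with earlier results of these data known. Values by mouse are given for members called or without overlap and for Cd36, Fabp3, Cpt1a, Cpt1b, Acadm, Hadha, Etfdh, Ucp2, Ucp3, Bdh1 and Oxct1, and, outside the members, for genes called (up to 12 by smallest p) and Ppara, Ppargc1a, Pdk4, Angptl4, Fabp4 and Acacb. The result of 1 gene outside the members is not reported here. Hadh and Acot1 were added to the plots after their values were seen. The mice are separate animals, and p-values cover the spread between them. Promoters were read from GRCm39 with GENCODE M39. Summaries and plots used scipy 1.17.1, matplotlib 3.10.9, numpy 2.4.6 and pandas 2.3.3 in Python 3.11.15.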

Additional observations from a re-analysis of the deposited data

Results flagged for a closer look

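In 9 of 94 groups of 5 mice, 1 mouse lay farther from the other 4 than the 95% critical value of Dixon's test allows. Chance gives about 1 in 20 groups where groups are independent. Here the same mice recur from gene to gene, so the count of 9 cannot be read as an excess over that rate. MLPKO mouse 2 was the low one in 4 of these. It had 774 CPM of Acsl1, where the other 4 MLPKO mice had 978 to 1024, and 162 CPM of Acads, where they had 189 to 199. Hadhb stood at 1121 CPM in the same mouse against 1391 to 1481, and Ech1 at 439 CPM against 629 to 695. cRADΔ/Δ-MLPKO mouse 4 was the high one in 3 groups, with 767 CPM of Acaa2 against 587 to 611 in the other 4, 239 CPM of Eci1 against 195 to 203, and 616 CPM of Etfdh against 531 to 554. Fabp3 was low in cRADΔ/Δ-MLPKO mouse 2, at 2429 CPM against 2792 to 2881 in the other 4. Slc16a1 was high in MLPKO mouse 5, at 330.4 CPM against 261 to 281. MLPKO mouse 2 also had the fewest counts and the highest Nppa (2435 CPM) and Acta1 (19103 CPM). Of the other markers of atrium and skeletal muscle, Dkk3 (15.3 CPM) and Tnnt3 (1.43 CPM) were also highest in it. Stard10, Myh7b and Mylpf were lowest in it. The part of these features in its low values was not tested.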

How the results depend on the processing

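DESeq2 called 1298 genes, of which 2 were members and 9 were genes of the other lists, against 369, 0 and 3 with edgeR. Its adjusted p was 0.0103 for Bdh1, 0.0216 for Etfb, 0.0184 for Fabp4 and 0.0203 for Ppargc1a. The mouse number as a replicate block gave 281 genes, 1 member (Bdh1, adjusted p = 0.017) and 1 gene of the other lists (Slc16a7). These numbers belong to different animals, the deviations of mice with the same number correlated at -0.039 to 0.20, and 2 of the 5 cRADΔ/Δ-MLPKO mice correlated best with the MLPKO mouse of their own number. Without both MLPKO mouse 2 and cRADΔ/Δ-MLPKO mouse 3, 159 genes, 0 members and 0 genes of the other lists were called. RLE size factors left 1 member without overlap, Slc27a6.

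Leaving out single mice gave 47 (without MLPKO mouse 5) to 826 (without MLPKO mouse 4) genes called, 0 to 1 members (Bdh1 without MLPKO mouse 3), 0 to 6 genes of the other lists and 2 to 4 members without overlap. The log2 ratio difference ranged from -0.31 to 0.036 for Cpt1a to Cpt1b, from -0.60 to 0.22 for Ucp2 to Ucp3, and from 0.81 to 1.46 for Slc27a1 to Slc27a6, whose p was above 0.05 in 6 of these.

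Of 845 log2 fold changes recomputed for 47 genes, 48 in 14 genes changed sign, all of genes at 0.12 or less in size. The cause was not tested. Slc25a20 gave -0.0014 with RLE and -0.0015 with DESeq2. Acadl gave 0.0011 with no filter, 0.0043 with filterByExpr, 0.00098 with limma-voom and 0.000398 with the replicate block, and the log2 fold change of Acat1 was 0.00254, 0.00534 and 0.00427 with the last 3. Without both mice the values were -0.0097 for Lpl, -0.048 for Slc27a1, -0.059 for Cpt2, -0.064 for Slc25a20, -0.011 for Acads, -0.0074 for Hadha, -0.042 for Eci2 and -0.028 for Acacb. Leaving out single mice gave -0.0077 to 0.049 for Cd36, -0.0077 to 0.14 for Lpl, -0.091 to 0.16 for Slc27a1, -0.049 to 0.075 for Cpt2, -0.071 to 0.049 for Slc25a20, -0.034 to 0.041 for Acadl, -0.016 to 0.064 for Acads, -0.0435 to 0.0496 for Hadha, -0.078 to 0.016 for Hadhb, -0.023 to 0.12 for Eci2, -0.0059 to 0.12 for Decr1, -0.068 to 0.054 for Acat1, -0.032 to 0.14 for Acacb and -0.0046 to 0.25 for Ppara.

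The 95% intervals of 8 of 38 members reached past 1.5-fold, and Slc27a6 had 4 to 30 counts per mouse.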

Other observations

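Among the lists of the wider pathway, 1 had every gene above 0 and is described here for that reason. Above 0 in the other lists were 6 of 10 genes of lipoprotein and fatty acid supply and 9 of 14 other mitochondrial oxidation enzymes. The counts were 7 of 15 for peroxisomal oxidation, 2 of 5 for ketone synthesis and transport and 4 of 6 for the fuel switch. In the list of activation, carnitine and malonyl-CoA genes 9 of 9 were above 0 (52.1% of all genes tested) with a median log2 fold change of 0.17, 3 of 9 had an unadjusted p under 0.05 (21.6% of all genes) and 0 were called by edgeR (2.74% of all genes), and 7 of 9 were above 0 without MLPKO mouse 2. Acsl4, an acyl-CoA synthetase with a preference for arachidonic acid, had the lowest p of these, chosen after its value was seen, with a log2 fold change of 0.25 (SE 0.063), an edgeR adjusted p = 0.0565 and a DESeq2 adjusted p = 0.0134, and its groups did not overlap. Among the tricarboxylic acid cycle genes, Suclg2, a subunit of succinyl-CoA ligase, also chosen after its value was seen, had a log2 fold change of 0.28 (SE 0.072), an edgeR adjusted p = 0.0609 and a DESeq2 adjusted p = 0.0114. Of 62 genes listed for the wider pathway, 3 were not tested for low counts, Hsd17b8, Nudt8 and Bdh2, and Nudt8 was at 0 in all 10 mice.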
